A study of Arabidopsis thaliana with 8 samples.

Results

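AT4G16240 and AT4G16260 are 2 genes on chromosome 4 of Arabidopsis thaliana, among 13286 genes that the arrays measured under a name. They were chosen by their measured values: both stood high in seedlings without IBM1, and they were taken to differ once JMJ24 was lost as well. Each has 1 probe set. That of AT4G16240 carries the suffix x, which marks a probe set some of whose probes also match other transcripts, so its values may hold signal from other genes. All seedlings were of accession Col-0, 12 days old and untreated, and total RNA came from their aerial parts. Besides wild type (WT) there were knockouts of JMJ24 and of IBM1 and the JMJ24-IBM1 double knockout, with 2 Affymetrix ATH1 arrays for each genotype. An RNA amount is labelled for each sample, from 16.2 to 45.5 ug, and was lowest for the 2 samples of the IBM1 knockout. The part of RNA amount in the values was not tested. The labels used here give no allele or line name for any knockout and do not say how many plants went into an extract. Nor do they say whether the paired arrays stand for plants grown apart; the spread behind each p-value is that between samples and may be technical.

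AT4G16260 belongs to glycoside hydrolase family 17, the beta-1,3-glucanases. These enzymes cut beta-1,3-glucans, among them callose, the polymer that plants lay down at plasmodesmata and at sites of attack, and the glucans of fungal cell walls; some members are classed as pathogenesis-related proteins. No function is given here for AT4G16240. IBM1 is a jumonji protein known to keep histone H3 lysine 9 methylation, and the DNA methylation that goes with it, out of the bodies of active genes. JMJ24 is another protein of the jumonji family.

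The 2 genes are near neighbours but not adjacent. In the RefSeq gene table of assembly TAIR10.1, used here for gene order alone, AT4G16250 lies between them. That gene is PHYD, which encodes the photoreceptor phytochrome D. No probe set is named for PHYD here, so its level was not analysed. No sequence of either gene was used here.

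AT4G16240 measured 3.32 and 3.38 in WT, on the log2 scale of the authors' values. It measured 6.17 and 6.55 in the IBM1 knockout. The IBM1 knockout arrays were the highest of the 8, well clear of every other array. The JMJ24 knockout arrays gave 4.01 and 3.65, and the double knockout arrays 3.74 and 4.58. These 4 arrays lay above both WT arrays and below both IBM1 knockout arrays, and the ranges of the JMJ24 and double knockouts overlapped. In rising order the genotype means were 3.35 ± 0.0472 for WT, 3.83 ± 0.256 for the JMJ24 knockout, 4.16 ± 0.588 for the double knockout and 6.36 ± 0.265 for the IBM1 knockout (mean ± SD, n = 2). The JMJ24 and double knockouts, neighbours in that order, did not differ beyond their spread. Every AT4G16240 value lay above the lower quartile of its own array, a mark used here for signal near background that ran from 2.49 to 2.53.

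AT4G16260 measured 2.31 and 2.34 in WT. In the IBM1 knockout it measured 4.51 and 4.57. The JMJ24 knockout arrays gave 2.47 and 2.31 and the double knockout arrays 2.35 and 2.45. So this gene was high on the 2 IBM1 knockout arrays alone, and on each of the 6 others it lay at or under the lower quartile of that array. By genotype the means were 2.32 ± 0.0239 for WT, 2.39 ± 0.116 for the JMJ24 knockout, 2.40 ± 0.0733 for the double knockout and 4.54 ± 0.0415 for the IBM1 knockout (mean ± SD, n = 2). The first 3 of these genotypes overlap near background and have no order.

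**Figure D1:**
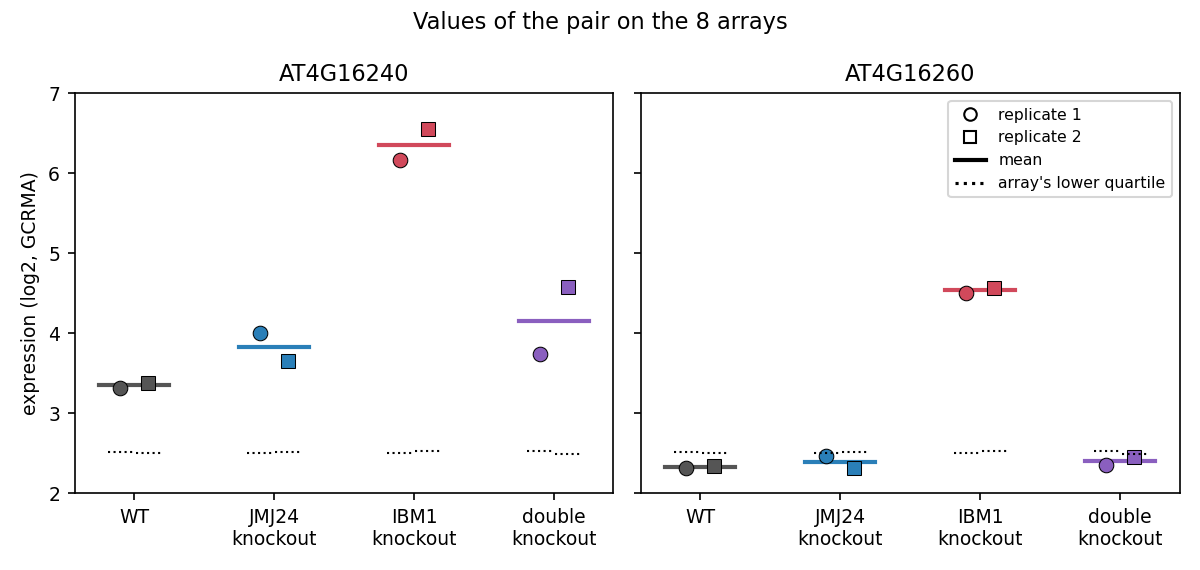
Expression of AT4G16240 (left) and AT4G16260 (right) on the log2 scale for each genotype; circles are replicate 1, squares replicate 2, bars the mean of 2 arrays and dotted lines the lower quartile of each array. AT4G16240 lies between 3.65 and 4.58 in the JMJ24 and double knockouts, above WT, while AT4G16260 lies at or under the quartile everywhere but in the IBM1 knockout.

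The values that chose the pair are given as a description, with no test. Without IBM1, AT4G16240 stood 3.01 above WT on the log2 scale, or 8.06-fold. AT4G16260 stood 2.22 higher. Since its WT values lay near background that difference is better read as a bound, at least 2.04 against the quartile, or at least 4.10-fold. By the size of the measured difference AT4G16240 was the 20th of 22746 probe sets tested. The limma fit across all probe sets, in which a call is a Benjamini-Hochberg adjusted p under 0.05, called 0.334% of them in that contrast in either direction and 0.264% upward. These shares are not stable: the 76 calls changed widely in number when 1 array was left out. That held even for a JMJ24 or double knockout array, which left the difference of AT4G16240 at 3.01. Such an array enters this contrast only through the spread that the genotypes share.

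In the double knockout both genes stood below their IBM1 knockout values. The difference was -2.20 on the log2 scale for AT4G16240. For AT4G16260 it was -2.14 as measured and -2.03 against the quartile, a bound, since both double knockout arrays lay near background. How far the 2 genes differ in this contrast can therefore not be read. AT4G16240 in the double knockout stood 0.81 above WT, while AT4G16260 was near background in both. A rise of AT4G16260 that stayed near background could not be seen. Whether the genes differ in the level that remained can therefore not be read either. The 2 double knockout arrays lay 0.83 apart for AT4G16240, and for AT4G16260 a gap between them cannot be read. On single arrays AT4G16240 stood 0.39 above its WT mean on double knockout replicate 1 and 1.23 above it on replicate 2. Relative to the JMJ24 knockout, the double knockout mean of AT4G16240 was 0.33 higher, and without double knockout replicate 2 it was -0.08, on the other side of 0. The effect of JMJ24 loss in plants without IBM1 minus its effect in plants with IBM1, called the interaction below, was -2.68 for AT4G16240. It was between -3.09 and -2.26 with 1 array left out. Contrasts with a genotype in common share its arrays.

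JMJ24 loss alone is the 1 contrast that was not itself used to choose the genes, and it was tested. It is not independent of that choice. Its WT arrays are also those of the IBM1 loss contrast, and its spread is shared by all genotypes. AT4G16240 stood 0.48 above WT (SE 0.307, 95% confidence interval -0.30 to 1.26), and this did not pass in limma (unadjusted p = 0.179, adjusted p = 1). Both JMJ24 knockout arrays were above both WT arrays, by 0.66 and 0.30 over the WT mean. The interval holds a difference as large as 1.26 as well as none. AT4G16260 did not pass either (limma adjusted p = 1), and no difference is given for it because all 4 arrays lay at or under the quartile. Over all probe sets limma called 0.00879% in this contrast.

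The 2 arrays of the JMJ24 knockout and of the double knockout did not lie equally high. For AT4G16240, JMJ24 knockout replicate 1 exceeded replicate 2 by 0.36, and double knockout replicate 2 exceeded replicate 1 by 0.83. This order was common among genes high without IBM1. Of 310 probe sets that stood at least 1 above WT without IBM1 on the log2 scale, 227 had both of these orders, or 73.2%, against 18.2% of all probe sets tested. The share over all probe sets includes those near background on every array, where no order can be read. The 2 shares are therefore not fully alike, and how far this widens their distance was not tested. Over the 310 the median gaps were 0.40 and 0.68, so AT4G16240 was close to them. For AT4G16260 these arrays lay near background, where no order can be read. All arrays but those of the IBM1 knockout were at or under the quartile for 19 of the 310, AT4G16260 among them. What sets the arrays of 1 genotype apart was not tested.

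The genes on either side of the pair were compared in the same fit. Of the 10 genes on each side and PHYD, 6 of 21 were measured under a name. None of the 6 was called by limma in any of 6 contrasts, and none had an unadjusted p under 0.05 in any. For IBM1 loss 0.334% of all probe sets were called and 14.4% had such a p, so that 0 of 6 is near the background. NRPB9B (AT4G16265), the next gene after AT4G16260, encodes a subunit of RNA polymerases. On it WT gave 2.76 and 3.10 and the IBM1 knockout 3.41 and 3.18. Its difference of 0.36 (SE 0.155, limma adjusted p = 0.397) was the largest of the 6 in this contrast and did not pass. The values of AT4G16270, a peroxidase gene, and of AT4G16230 lay at or under the quartile on all 8 arrays. Neither thus rose clear of background, and a smaller rise or a fall could not be seen. AT4G16190, a cysteine protease gene on the other side, measured 10.32 and 9.95 in WT and 10.38 and 9.92 in the IBM1 knockout. Its arrays overlapped fully, with a difference of 0.01. Over the 6 the median difference was 0.01, against -0.01 over all probe sets.

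**Figure D2:**
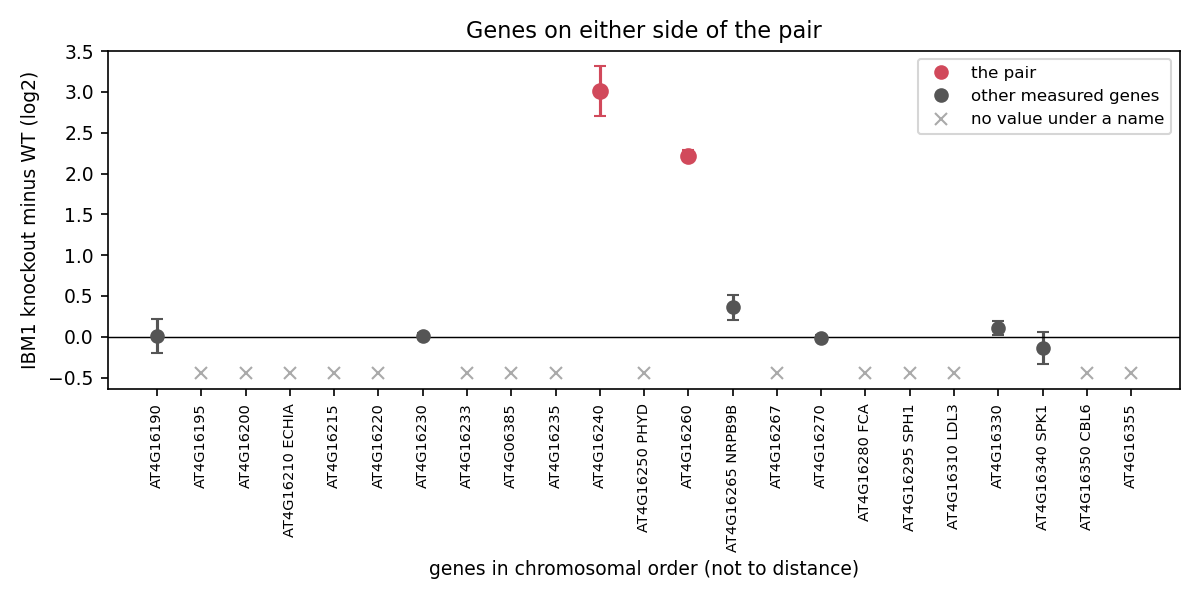
Difference between the IBM1 knockout and WT (log2, with the standard error from limma as bars) for AT4G16240 and AT4G16260 in red and for the measured genes around them in grey, in chromosomal order; crosses mark genes with no value under a name. The 6 grey genes lie between -0.14 and 0.36, and PHYD, between the pair, has no value.

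With the window widened to the 10 nearest measured genes on each side, 20 genes with 21 probe sets, limma again made no call in any contrast. For IBM1 loss 1 of the 21 had an unadjusted p under 0.05, against 14.4% of all probe sets, and the differences ran from -0.92 to 0.36. Across the genome, 10323 pairs of measured genes lay with at most 1 gene between them. Of named genes 1.15% were at least 1 higher without IBM1, a share of single genes that cannot be set against a share of pairs. Both genes of a pair were that high in 2 of the 10323, or 0.0194%, and no expected number of such pairs was worked out. One was AT4G16240 with AT4G16260, chosen for that property. The other was AT5G52750 with AT5G52760, direct neighbours on chromosome 5 that stood 1.06 and 1.33 higher.

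Other beta-1,3-glucanase genes were compared as a family. Of 48 other listed genes of glycoside hydrolase family 17, 38 were measured under a name. Limma called 0 of the 38 in each of the 6 contrasts, which at 0.334% of all probe sets for IBM1 loss is near the background. At an unadjusted p under 0.05 there was 1 for JMJ24 loss, 1 for the double against the IBM1 knockout and 1 for the double against the JMJ24 knockout, where 4.04%, 11.1% and 3.35% of all probe sets had one. There were 0 in the other contrasts, among them IBM1 loss with 14.4% of all probe sets. For IBM1 loss their differences ran from -0.38 to 0.41, with 15 higher and 23 lower and a median of 0. The values of 15 of the 38 lay at or under the quartile on all 8 arrays, so no fall could be seen for them.

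The family members with the largest differences for IBM1 loss stayed well under that of AT4G16260, and none passed. AT4G16260 was chosen for its high value in this contrast, so its place above them was largely set by the choice. AT1G32860 measured 2.78 and 2.69 in WT and 3.07 and 3.22 in the IBM1 knockout (difference 0.41, limma adjusted p = 0.408). On this gene the JMJ24 knockout gave 3.07 and 2.61 and the double knockout 2.74 and 3.05, with JMJ24 knockout replicate 1 and double knockout replicate 2 again the higher arrays. AT4G29360 had WT arrays far apart, at 2.88 and 3.97, and differed by -0.38 (limma adjusted p = 0.825). AT1G11820 differed by -0.34 and AT2G26600 by 0.31 (limma adjusted p = 0.572 and 0.641). AT4G29360 and AT2G26600 had the same order of JMJ24 and double knockout arrays as AT1G32860, while AT1G11820 had the other order in both genotypes. That order was not counted over the family. The best-known pathogenesis-related member, BG2 (AT3G57260), has no probe set named here.

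**Figure D3:**
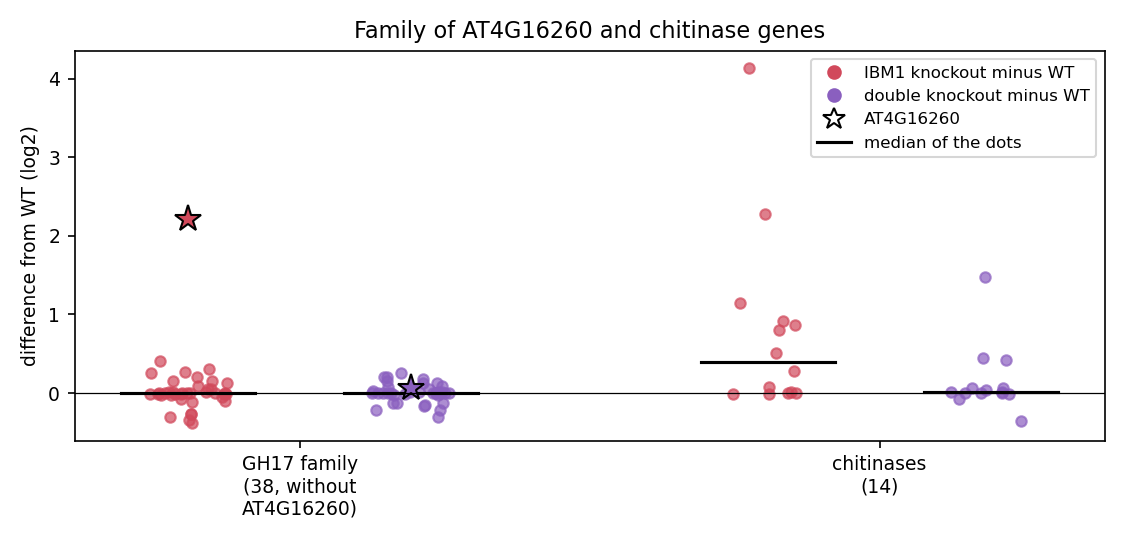
Difference from WT (log2) in the IBM1 knockout (red) and the double knockout (purple) for 38 genes of glycoside hydrolase family 17 and 14 chitinase genes, each dot 1 probe set and each bar the median; stars mark AT4G16260, whose double knockout and WT values are both near background. The family lies between -0.38 and 0.41 without IBM1 while AT4G16260, chosen for its high value there, stands at 2.22.

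Chitinases, which cut the chitin of fungal walls and often accompany beta-1,3-glucanases in defence, were listed as well. Of 23 listed, 14 were measured under a name, and without IBM1 11 of these stood above WT and 3 below it, 5 of the 14 being near background on all 8 arrays. Limma called 0 of the 14 for IBM1 loss, with 6 at an unadjusted p under 0.05, against 14.4% of all probe sets. Their median difference was 0.40, against -0.01 over all probe sets, and 3 stood at least 1 higher. For AT2G43620 the WT arrays gave 2.68 and 3.06, those without JMJ24 5.52 and 3.14, those without IBM1 7.28 and 6.72 and those without either 3.06 and 5.62. For AT2G43570 (CHI) the values in the same order were 2.86 and 2.84, then 3.95 and 2.61, then 5.43 and 4.82, then 2.76 and 3.78. In both, JMJ24 knockout replicate 1 and double knockout replicate 2 were the higher arrays of their genotypes, as for AT4G16240. Their differences for IBM1 loss, 4.13 and 2.28, did not pass (limma adjusted p = 0.186 and 0.165). AT4G01700, also at least 1 higher without IBM1, gave 2.63 and 2.84 without JMJ24 and 2.88 and 3.13 without either. Its JMJ24 knockout arrays thus had the other order. For the double against the IBM1 knockout and for the interaction, limma also called 0 of the 14, with 4 and 6 at an unadjusted p under 0.05. Of all probe sets 11.1% and 7.72% had such a p in these contrasts, and 0.242% and 0.0132% were called. For JMJ24 loss and for the double knockout against WT or the JMJ24 knockout, limma called 0 of the 14 as well and 0 had an unadjusted p under 0.05. Over all probe sets it called 0.00879% in the double knockout against WT and 0% against the JMJ24 knockout.

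Of 6 other listed pathogenesis-related genes, 1 was measured. It was ATLP-1 (AT1G18250), a gene for a thaumatin-like protein. The WT arrays gave 6.08 and 6.22, those without IBM1 6.91 and 6.88, those without JMJ24 6.14 and 6.06 and those without either 6.07 and 6.23. Like AT4G16260 it was high on the IBM1 knockout arrays alone. It rose by 0.74 with IBM1 loss (SE 0.0771, limma adjusted p = 0.049), a call that was lost without any 1 of the 8 arrays. None of 12 callose synthase genes or 3 genes for callose-binding proteins of plasmodesmata was measured under a name.

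The genes whose pattern over the 8 arrays was most like that of each member were found among 13434 other probe sets naming 1 gene. Likeness was the root mean square difference in log2 units after each probe set had its own WT mean subtracted. Closest to AT4G16240 were AT4G15390, an acyltransferase family gene, at 0.226, AT1G73040, a jacalin lectin gene, at 0.339, and AT5G55450, a lipid transfer protein gene, at 0.412. AT1G54020, a GDSL lipase gene, followed at 0.471 and AT4G30170, a peroxidase gene, at 0.477. For AT4G15390 the WT arrays gave 2.24 and 2.25, those without JMJ24 2.94 and 2.24, those without IBM1 4.85 and 5.22 and those without either 2.25 and 3.23. Its WT arrays, JMJ24 knockout replicate 2 and double knockout replicate 1 lay under the quartile. On the same knockout arrays AT4G16240 was 0.30 and 0.39 above its WT mean. For AT4G15390 a difference from WT there cannot be read, so the genes cannot be compared on them.

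Closest to AT4G16260 were AT3G27400, a pectate lyase gene, at 0.141, AT3G15650 at 0.163 and AT3G15720, a pectin lyase-like gene, at 0.205. ATC (AT2G27550), a relative of the flowering repressor TFL1, followed at 0.233 and AT4G12490, a gene of the lipid transfer protein superfamily, at 0.256. For AT3G27400 the WT arrays gave 2.63 and 2.67, those without JMJ24 3.14 and 2.56, those without IBM1 4.71 and 4.84 and those without either 2.61 and 2.91. AT3G15650 measured 3.06 and 3.03 in WT and 5.13 and 4.87 without IBM1, and its other arrays lay between 3.07 and 3.20. Between AT4G16240 and AT4G16260 themselves the distance was 0.613. Added to the other probe sets, AT4G16260 would be the 16th nearest to AT4G16240, and AT4G16240 the 89th nearest to AT4G16260. On all arrays but those of the IBM1 knockout AT4G16260 lay at or under the quartile. Its distances and these ranks therefore hold differences near background that cannot be read.

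**Figure D4:**
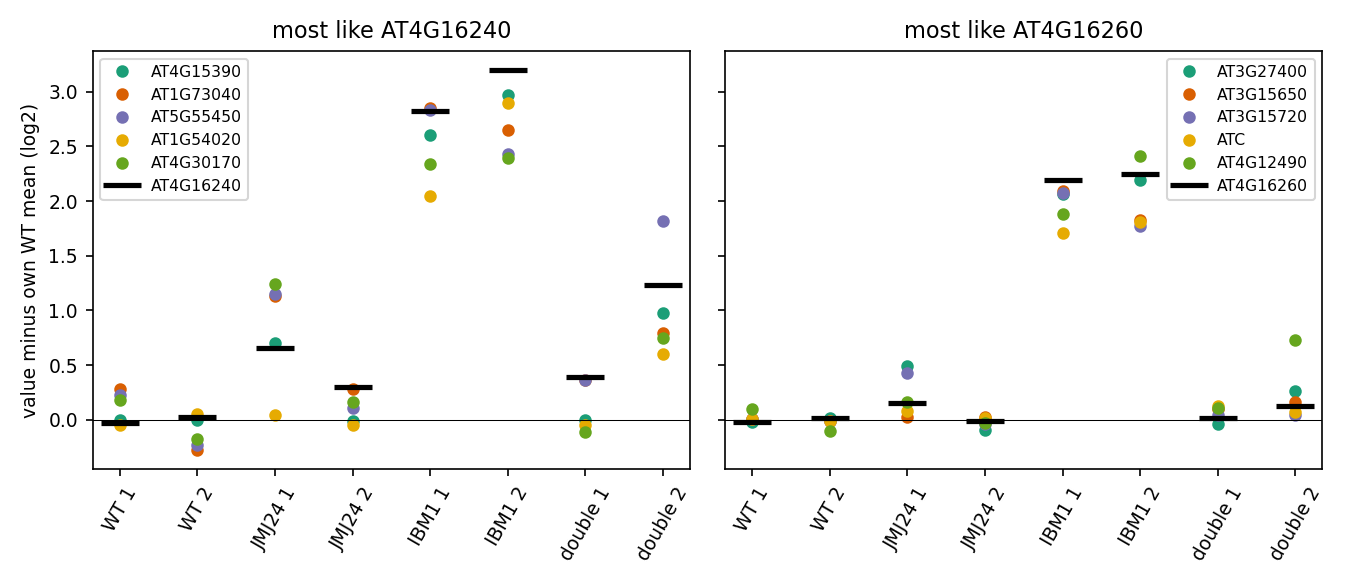
Value minus own WT mean (log2) on each of the 8 arrays for AT4G16240 with its 5 most like genes (left) and AT4G16260 with its 5 (right); black bars are the member and dots the other genes. On double knockout replicate 2, AT4G16240 stands at 1.23 while AT4G16260 is near background.

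The labelled tissue was checked on markers. RCA, the Rubisco activase of green tissue and the 1 measured of 14 aerial markers, lay between 12.81 and 12.95 on all arrays. Of 15 root markers 4 were measured. The root hair expansin genes EXPA7 and EXPA18 lay at or under the quartile on all 8 arrays. The summed linear level of the 4 was 416 to 477 on WT arrays, 486 to 527 without JMJ24, 633 to 809 without IBM1 and 416 to 785 without either. PYK10, a beta-glucosidase of roots and hypocotyls, gave most of that sum, with 8.65 and 9.59 in the double knockout, so it was high on the same double knockout array as AT4G16240. None of the 4 was called by limma in any contrast, which at 0.334% of all probe sets for IBM1 loss is near the background. At an unadjusted p under 0.05 there was 1 for IBM1 loss, 1 for the double against the IBM1 knockout and 1 for the interaction. Of all probe sets 14.4%, 11.1% and 7.72% had such a p. The peroxidase gene AT5G17820 stood at 3.58 and 3.14 in the IBM1 knockout against 2.74 and 2.73 in WT. The part of these markers in the values of the pair was not tested, and in whole shoots fewer cells of a type and less RNA per cell cannot be told apart.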

How the data were processed

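The authors' deposited values are log2 expression, 1 per probe set and array, and GCRMA, without a version, is named in the submitters' processing notes. No read depth exists for arrays, so precision is limited by how many there are; array medians ran from 3.42 to 3.52. Control probe sets were left out and 22746 tested. Names came from the platform annotation, matched by Entrez ID to the gene table of assembly TAIR10.1: 13513 probe sets named 1 gene, of which 13436 matched, 503 several, and 8730 are unnamed here, as are the probe sets of JMJ24 and IBM1, so the targeted genes were not checked. With limma 3.58.1 under R 4.3.3, lmFit gave each genotype its mean from the 8 arrays together, followed by contrasts and eBayes; the code was tested on simulated data. Adjusted p are Benjamini-Hochberg over all probe sets.

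The members and gene lists were chosen with earlier results of these data known. Named genes were, by a written rule, the nearest measured neighbours, the 4 largest differences for IBM1 loss in the family, the 2 largest in each other list with any call, and the 5 of most like pattern; other names were added after their values were seen. A planned search for protein relatives was not run, as no sequences were used here.

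Alternatives were a second quantile normalization, median centring, limma-trend, the replicate number as a block, keeping only probe sets with a genotype mean of 5 or more, the compared groups alone, the quartile as a floor, and leaving out each array. A wider gene window, a crossed block and leaving out 2 arrays were added after seeing the data. The planned pseudocount has no place on values already in log2.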

Additional observations from a re-analysis of the deposited data

Results flagged for a closer look

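For AT4G16240 the arrays moved to opposite sides with JMJ24 loss in the 2 backgrounds: both JMJ24 knockout arrays lay above both WT arrays, and both double knockout arrays below both IBM1 knockout arrays. The difference between the 2 effects was -2.68 on the log2 scale. It was not tested, because the gene was chosen on the IBM1 and double knockout values that enter it. JMJ24 loss alone was not itself used to choose the gene, but it shares the WT arrays with IBM1 loss, which was. Its difference of 0.48 did not pass (limma unadjusted p = 0.179).

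AT2G43620, a chitinase family gene, had the same order of arrays, with a difference between the effects of -4.12. The limma interaction did not pass (adjusted p = 0.622), and its JMJ24 knockout arrays lay far apart, at 5.52 and 3.14.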

How the results depend on the processing

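For AT4G16240 the differences from WT were 0.30 to 0.66 (JMJ24 knockout), 2.82 to 3.20 (IBM1 knockout) and 0.39 to 1.23 (double knockout) with 1 array left out, those of the double from the IBM1 knockout -2.62 to -1.78 and from the JMJ24 knockout -0.08 to 0.75, and the interaction -3.09 to -2.26. AT4G16260 stood 2.19 to 2.25 above WT without IBM1 and at -2.20 to -2.09 in the double against the IBM1 knockout; with the quartile as a floor these were 2.04 and -2.03. Its JMJ24 loss contrast, near background, did not pass in any alternative run. The filter on dim probe sets leaves AT4G16260 out. The genes beside the pair and the family had 0 calls in all alternatives run with both arrays of each genotype. With the replicate block and with the compared groups alone, limma called 0 of all probe sets in every contrast run, so 0 was fixed there. In the other such runs at most 112 of all probe sets were called in any contrast, so 0 is near the background. The 1 call among chitinase and other defence genes for IBM1 loss was 0 with the replicate block, the crossed block, the compared groups alone and each array left out. For the double against the IBM1 knockout limma-trend called 1 of these genes, and 63 of all 22746 probe sets.

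The replicate numbers were not taken to pair the arrays: deviations of same-numbered arrays correlated, over probe sets, at -0.31 between the JMJ24 and double knockouts and at 0.037 to 0.208 between other groups. Over all probe sets the 76 calls for IBM1 loss became 0 with the block and with the compared groups alone, 112 with limma-trend, and 0 to 165 with 1 array left out, and the 55 of the double against the IBM1 knockout became 25 after a second quantile normalization, 6 under the filter on dim probe sets, 0 with the block and 0 to 161 with 1 array left out (0 when a WT or double knockout array was dropped, 3 for a JMJ24 knockout array and 161 for IBM1 knockout replicate 1). With crossed numbers the block gave 3 calls for IBM1 loss and 0 for the double against the JMJ24 knockout. With 2 arrays a genotype, small changes near background cannot be seen.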
